A study of Mus musculus with 24 samples.

Results

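The genes described here are 9 neuronal genes whose RNA level differed between mouse embryonic stem (ES) cells with a knockout (KO) of an m6A writer subunit and their control lines: Pax6, Neurod1, Isl1, Tubb3, Gap43, Dpysl3, Stmn2, Stmn3 and Bdnf. They are 9 of the 47937 genes present in both count tables and were chosen by their RNA-seq change in a knockout, so their RNA-seq differences are given as a description without a test, and tests are given only for the separate MeRIP-seq libraries. The 4 lines compared were WT26, the wild-type control of the Mettl14 KO line (clone A10), and RBC, which carries Rosa26 BirA-V5 and Cre-ERT2 and is the control of the Mettl3 KO line (clone 2c4d). The RNA-seq lines are labelled as 129/Sv x C57Bl6, and all cells were grown without feeders on gelatin with serum replacement and LIF, the cytokine that holds ES cells undifferentiated. Each knockout is a single clone compared with its own parental line, and clonal differences cannot be told apart from the loss of the gene. Each line had 2 replicates in RNA-seq (8 libraries) and 2 in MeRIP-seq, where an antibody against m6A pulls down RNA fragments (IP) and the same RNA without the antibody serves as input (16 libraries). The study's methods describe nuclear RNA, whereas the labels give total RNA.

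Mettl3 and Mettl14 form the enzyme complex that places N6-methyladenosine (m6A) on messenger RNA, most often within a GGAC sequence. Neuronal differentiation runs from transcription factors that specify neural progenitors and neurons, through proteins of the neuronal microtubules and the growth cone, to secreted neurotrophins and their receptors. ES cells held in LIF are pluripotent and express most of these genes weakly, if at all. In bulk RNA, fewer cells of a type and less RNA per cell cannot be told apart.

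RNA-seq libraries held 11321459 to 13743181 counted reads and MeRIP-seq libraries 9394163 to 28441282, with replicate 1 the deeper one in every MeRIP-seq group. Counts were scaled by size factors, so that normalized counts compare a gene between the libraries of one table relative to the typical feature (gene or repeat subfamily). A shift shared by most features, between IP and input or between lines, is removed by this scaling. All 9 genes passed the filter on low counts in both tables. Reads of the targeted genes remained: Mettl14 had a log2 fold change of -0.31 (adjusted p = 0.00609, edgeR) in its own knockout, and Mettl3 one of -0.16 (adjusted p = 0.0588, edgeR) in its own, and gene counts do not show whether the mutated part is missing. The replicates of RBC differed most among the RNA-seq lines, their counts giving a chi-square of 39.8 per degree of freedom where the other lines gave 2.95 to 6.31.

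A gene was called when its adjusted p did not exceed 0.05 and its log2 fold change exceeded 1 in size. By this rule 6 of the 9 genes were called in Mettl14 KO cells against WT26 (1 higher, 5 lower), where 14.5% of all tested genes were called, and 5 of the 9 in Mettl3 KO cells against RBC (2 higher, 3 lower), where 13.6% were called. Since these contrasts chose the genes, the counts describe the choice. Nearest to the limit, Stmn3 in Mettl3 KO cells (log2 fold change 1.06) and Tubb3 in Mettl14 KO cells (-1.09) lay just inside, and Isl1 in Mettl14 KO cells (-0.94) and Gap43 in Mettl3 KO cells (-0.64) just outside. Replicates of knockout and control did not overlap for 9 of 9 genes in Mettl14 KO cells and for 7 of 9 in Mettl3 KO cells, and the same held for 76.5% and 75.6% of all tested genes.

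Among the transcription factors, Pax6 was higher and Neurod1 and Isl1 were lower in each knockout than in its control. Pax6, a paired-box factor of neural progenitors and the eye, had 20.8 and 23.6 normalized counts in WT26 (replicates 1 and 2) against 91.1 and 81.8 in Mettl14 KO cells, while RBC had 73.6 and 62.1 and its knockout 167.8 and 144. No 2 neighbouring lines overlapped in this order, in which WT26 was lowest and Mettl3 KO highest, and RBC stood closer to Mettl14 KO than to its fellow control. Pax6 was thus 3.89-fold higher in the Mettl14 knockout (log2 fold change 1.96, SE 0.216) and 2.31-fold higher in the Mettl3 knockout (1.21, SE 0.16).

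Neurod1, a basic helix-loop-helix factor that drives neuronal differentiation, had 114.8 and 122.4 normalized counts in WT26 against 17 and 16.6 in Mettl14 KO cells, while RBC had 86.2 and 76.9 and its knockout 32.2 and 39.3. Its level fell in the order WT26, RBC, Mettl3 KO, Mettl14 KO, with no overlap between neighbours. Neurod1 was 7.01-fold lower in Mettl14 KO (log2 fold change -2.81, SE 0.216) and 2.28-fold lower in Mettl3 KO cells (-1.19, SE 0.197). Isl1, a LIM-homeodomain factor of motor and sensory neurons, was scarce throughout, with 15.4 and 19.3 normalized counts in WT26 against 8 and 9.7 in Mettl14 KO cells, while RBC had 11.5 and 7.9 and its knockout 2.6 and 3. The Mettl3 KO value rested on 3 reads in each replicate, so the ratio to RBC is better given as 0.293 with a 95% counting interval of 0.0952 to 0.771 (such intervals cover counting error only). RBC and Mettl14 KO overlapped for Isl1, and the log2 fold change in Mettl14 KO cells was -0.94 (SE 0.403).

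The genes of the neuronal cytoskeleton and growth cone separated the lines in different ways. Tubb3, the neuron-specific beta-tubulin, had 444 and 414.4 normalized counts in WT26 and 194.3 and 210.4 in Mettl14 KO cells (log2 fold change -1.09, SE 0.0904). In the other pair RBC had 357.5 and 357.9 and Mettl3 KO cells had 468.7 and 512.7 (0.45, SE 0.0832), so the knockout lay below its control in one pair and above it in the other. Gap43, a membrane-bound growth cone protein, was low: 18.1 and 20.4 normalized counts in WT26 against 3 and 3.9 in Mettl14 KO cells, while RBC had 14.9 and 26.6 and its knockout 13.9 and 13.1. The Mettl14 KO libraries held 3 and 4 reads of Gap43, a ratio to WT26 of 0.181 (95% counting interval 0.0682 to 0.408), while RBC and WT26 overlapped. In Mettl3 KO cells the log2 fold change was -0.64 (SE 0.367), and it was -0.14 without RBC replicate 2.

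Dpysl3, a collapsin response mediator protein that links guidance signals to microtubules, showed the largest fall among the 9 genes in Mettl14 KO cells. It had 520.9 and 467 normalized counts in WT26 and 67.1 and 43.8 in Mettl14 KO cells, 8.94-fold lower (log2 fold change -3.16, SE 0.14). RBC, with 120.7 and 134.1, and Mettl3 KO cells, with 135.7 and 130.9, overlapped and differed by a log2 fold change of 0.06 (SE 0.144). Both were closer to Mettl14 KO cells than to WT26.

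The stathmins, which bind tubulin dimers and destabilize microtubules, split between the pairs. Stmn2 had 1308.5 and 1339.9 normalized counts in WT26 against 997.5 and 980 in Mettl14 KO cells, while RBC had 1131.2 and 1177.1 and its knockout 487.8 and 527.8. All 4 lines were separate, and the fall was larger in Mettl3 KO (log2 fold change -1.19, SE 0.0616) than in Mettl14 KO cells (-0.42, SE 0.0575) in these values. Stmn3 had 66.9 and 68.7 in WT26 against 46.1 and 40.9 in Mettl14 KO cells, while RBC had 24.1 and 26.6 and its knockout 47.8 and 59.4. It was thus lower than the control in Mettl14 KO cells (-0.64, SE 0.202) and higher than the control in Mettl3 KO cells (1.06, SE 0.236), where RBC had the lowest level of the 4 lines. Without Mettl3 KO replicate 2 the second value was 0.91.

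Bdnf, the neurotrophin that signals through the receptor Ntrk2, had 37.1 and 40.8 normalized counts in WT26 against 15 and 18.5 in Mettl14 KO cells, while RBC had 8 and 12.8 and its knockout 20 and 12.1. WT26 stood above the other three lines, whose neighbours in order of level overlapped. The log2 fold change against the control was -1.20 (SE 0.306) for Mettl14 KO cells. For Mettl3 KO cells it was 0.61 (SE 0.406), and ranged from 0.19 without Mettl3 KO replicate 1 to 1.01 without RBC replicate 2.

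**Figure D1:**
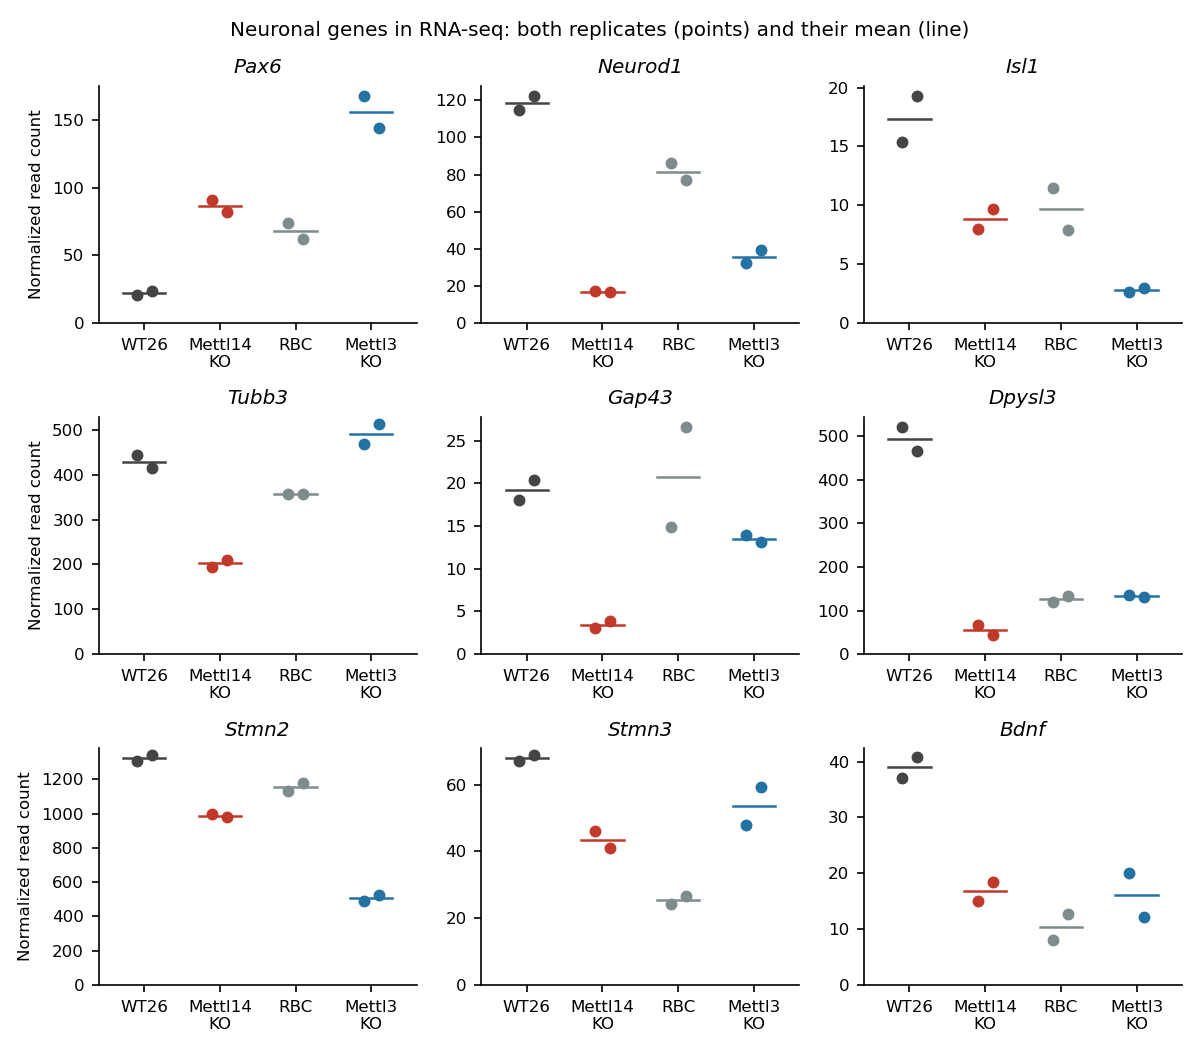
Normalized RNA-seq read counts (y axis, linear, from 0, a scale of its own for each gene) of the 9 neuronal genes in the 4 lines. Points are the 2 replicates and lines their mean. Pax6 is lowest in WT26 and highest in Mettl3 KO cells, Neurod1 is lower in each knockout than in its control, and Dpysl3 and Bdnf are high in WT26 alone.

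Levels of different genes can be compared only per length, here as normalized RNA-seq counts per kilobase of annotated exon. In WT26 the mean was 236 for Stmn2 and 230 for Tubb3, whose replicates overlapped. Dpysl3 (74.8), Stmn3 (59.7) and Neurod1 (43.5) followed, and Gap43 (12.6), Bdnf (6.26), Isl1 (4.38) and Pax6 (1.90) were the lowest. In Mettl3 KO cells Tubb3 led with 263 against 90.6 for Stmn2, while in their control RBC Stmn2 (206) and Tubb3 (191) led. Pax6 was at 13.3 in Mettl3 KO cells, the fifth place, and at 5.80 in RBC, the seventh. In Mettl14 KO cells Stmn2 (177) and Tubb3 (108) were still first, Dpysl3 was at 8.39, and Pax6 was at 7.40. Whether reads in introns were counted is not given in the sources used here, so the exon length may not be the counted length. The exon length also joins all annotated transcripts of a gene, with 5602 bases for Stmn2 and 11694 for Pax6. Their principal protein-coding transcripts have only 2073 and 2869 bases, while Tubb3 has 1868 by either measure. The order of the genes, and the closeness of Stmn2 and Tubb3, therefore depend on the length used.

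The 9 genes lie on chromosomes 2 (Pax6, Neurod1, Stmn3, Bdnf), 3 (Stmn2), 8 (Tubb3), 13 (Isl1), 16 (Gap43) and 18 (Dpysl3) of GRCm38. Neurod1 (chr2:79452521-79456751, minus strand) shares 7.37% of its exon bases with Cerkl on the same strand and 5.64% with Gm26755 on the other. Bdnf (chr2:109674700-109727007, plus strand) shares 14.4% with the antisense gene Gm45346, and the other 7 genes share no exon base with another annotated gene. The strand setting of the counting is not given in the sources used here, so reads of Neurod1 and Bdnf may include reads of these neighbours. Tubb3 has long stretches in common with other beta-tubulins, and how RNA-seq reads that match several genes were assigned is also not given.

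The control lines differed from each other in the same genes, and the comparison shares WT26 with one knockout contrast and RBC with the other. In RNA-seq 4 of the 9 genes were called between RBC and WT26, where 8.98% of all tested genes were called, and the choice of the genes used these same control libraries. Dpysl3 was 3.86-fold lower in RBC (log2 fold change -1.95, SE 0.123), Bdnf 3.63-fold lower (-1.86, SE 0.344) and Stmn3 2.66-fold lower (-1.41, SE 0.228), and Pax6 was 3.05-fold higher (1.61, SE 0.228). All of the 9 genes except Gap43 differed from WT26 in the same direction in Mettl14 KO cells and in RBC. Both comparisons use the same WT26 libraries, and the cause of the shared direction was not tested. Neurod1 (-0.54), Tubb3 (-0.26), Stmn2 (-0.20) and Gap43 (0.14) were closer between the controls, and Isl1 had a log2 fold change of -0.84 (SE 0.404).

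The MeRIP-seq inputs are a second measurement of RNA levels in the same lines that the choice of the genes did not use. Whether they came from the cultures of the RNA-seq is not given. In Mettl14 KO against WT26 inputs, Neurod1 and Dpysl3 were lower and passed the test, 2 of 9 genes, where 0.398% of all 22621 tested features (genes and repeat subfamilies) were called. Neurod1 had 80.9 and 51.5 normalized counts in WT26 and 7.2 and 0 in Mettl14 KO inputs, which is 8 and 0 reads (log2 fold change -3.80, SE 0.659, adjusted p = 0.03, edgeR). Dpysl3 had 278.2 and 242.3 in WT26 and 54.7 and 75.8 in Mettl14 KO inputs, 4.06-fold lower (-2.02, SE 0.367, adjusted p = 0.0347). Neither call held when any 1 of the 4 libraries was left out: the adjusted p was then 0.0787 to 0.283 for Neurod1 and 0.131 to 0.48 for Dpysl3, with both genes lower each time. An unadjusted p under 0.05 was reached by 4 of the 9 (10.6% of all features), and DESeq2 called the same 2 (1.7% of all features).

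For the other 7 genes the Mettl14 KO and WT26 inputs did not pass the test in the fit of all MeRIP-seq libraries. Pax6 had 28.3 and 48.5 normalized counts in WT26 and 100.4 and 80 in Mettl14 KO inputs (log2 fold change 1.27, SE 0.372, adjusted p = 0.166). In a fit of the input libraries alone Pax6 passed the test (1.3, SE 0.294, adjusted p = 0.0246, edgeR). Gap43 had 11 and 6 reads in WT26 and 0 and 2 in Mettl14 KO inputs, a ratio of 0.143 (95% counting interval 0.016 to 0.602). The log2 fold changes were -1.08 for Isl1, -0.73 for Tubb3, -0.50 for Stmn2, 0.33 for Stmn3 and -0.83 for Bdnf. Replicates did not overlap for 8 of the 9 genes, Stmn3 being the exception, and for 49.1% of all features.

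In Mettl3 KO against RBC inputs 0 of the 9 genes passed edgeR's test, where 0.752% of all features were called. At an unadjusted p under 0.05 there was 1, Stmn2 (11.7% of all features), and DESeq2 called 0 (1.89% of all features). Stmn2 had 825.1 and 604.6 normalized counts in RBC against 374.2 and 253.7 in Mettl3 KO inputs (log2 fold change -1.18, SE 0.356, adjusted p = 0.166), next to -1.19 in RNA-seq. Once a block on the replicate number was added, Stmn2 passed the test (-1.19, adjusted p = 0.0287, edgeR). Pax6 had 78.7 and 95.9 in RBC against 135.3 and 120.4 in Mettl3 KO inputs (0.55, SE 0.35), and Tubb3 had 211.3 and 141.4 in RBC against 240.7 and 284.2 in Mettl3 KO inputs (0.57, SE 0.369). Neurod1 overlapped between RBC (45 and 29) and Mettl3 KO (27.2 and 32.1) inputs, with a log2 fold change of -0.33 (SE 0.534). Isl1 had 0 and 6 reads in RBC against 1 and 0 in Mettl3 KO inputs, too few to compare (ratio 0.163, 95% counting interval 0.00354 to 1.34). Replicates did not overlap for 4 of the 9 genes and for 56% of all features.

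Between the control inputs, RBC against WT26, edgeR called 0 of the 9 genes (0.584% of all features). At an unadjusted p under 0.05 there were 2, Pax6 and Dpysl3 (8.13% of all features), and DESeq2 called Dpysl3 (1.2% of all features). Dpysl3 had 71.9 and 108.5 normalized counts in RBC against 278.2 and 242.3 in WT26 (log2 fold change -1.53, SE 0.355, adjusted p = 0.081, edgeR), and Pax6 had a log2 fold change of 1.22 (SE 0.371, adjusted p = 0.229). Once a block on the replicate number was added, Dpysl3 passed the test (-1.55, adjusted p = 0.0347, edgeR). In a fit of the input libraries alone Dpysl3 (-1.55, adjusted p = 0.00639, edgeR) and Pax6 (1.22, adjusted p = 0.0415, edgeR) passed.

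The direction of the RNA-seq difference was also that of the inputs for 8 of 9 genes in Mettl14 KO against WT26, all except Stmn3, where 79.9% of all genes tested in both tables had the same sign. For Mettl3 KO against RBC it was 9 of 9 (79.8% of all genes), and for RBC against WT26 9 of 9 (74.4%). Among genes called in RNA-seq the share with the same sign was 93.8%, 94.6% and 94.9% over all genes, beside 6 of 6, 5 of 5 and 4 of 4 of the genes described here. The median absolute difference between the RNA-seq and input log2 fold changes of the 9 genes was 0.38, 0.14 and 0.31.

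Whether the 2 knockouts changed a gene differently was tested in the inputs as the change in Mettl3 KO against RBC minus that in Mettl14 KO against WT26. No gene of the 9 passed in edgeR (0.141% of all features were called), 3 had an unadjusted p under 0.05 (Neurod1, Tubb3 and Dpysl3, beside 7.07% of all features), and DESeq2 called 2 (Neurod1 and Dpysl3, beside 0.632%). The difference was 3.46 on the log2 scale for Neurod1 (SE 0.86, adjusted p = 0.175, edgeR), 2.11 for Dpysl3 (SE 0.511, adjusted p = 0.159) and 1.30 for Tubb3 (SE 0.529, adjusted p = 0.597).

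**Figure D2:**
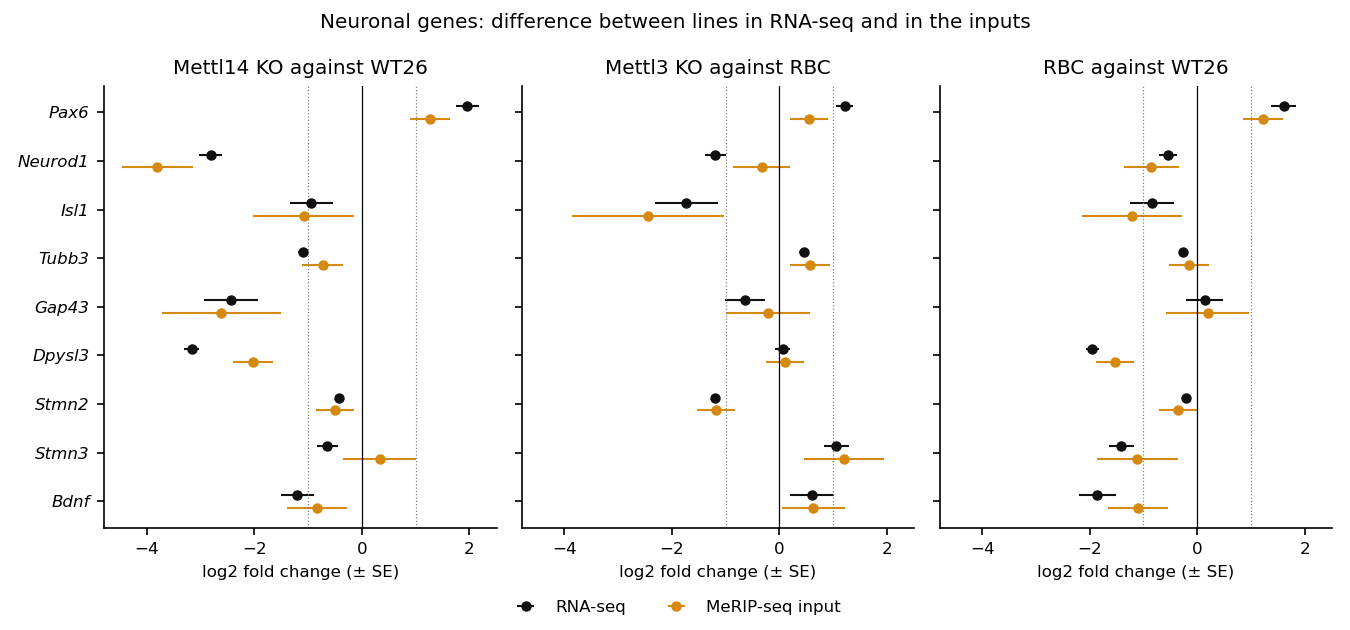
Log2 fold change (x axis, points, with SE as bars) of the 9 neuronal genes in RNA-seq (black) and in the MeRIP-seq inputs (orange) for Mettl14 KO against WT26, Mettl3 KO against RBC and RBC against WT26. Dotted lines mark a log2 fold change of 1 in either direction. The input values lie on the side of the RNA-seq values except for Stmn3 in Mettl14 KO against WT26, and have wider errors.

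IP over input measures how far a gene's RNA was enriched by the m6A antibody relative to the typical feature. The scaling centres this ratio, and its median over all features ran from -0.01 to 0.02 on the log2 scale across the lines. Enrichment was called where the adjusted p did not exceed 0.05 and the log2 ratio was above 1. Neurod1, Tubb3 and Bdnf were enriched in WT26 (3 of 9 genes, 14.5% of all features), and Neurod1 and Tubb3 also in Mettl14 KO (2 of 9, 11.9% of all features) and in RBC (2 of 9, 13.4% of all features). In RBC an unadjusted p under 0.05 was reached by 3 (Neurod1, Tubb3 and Stmn3, beside 43.4% of all features), and DESeq2 called these 3 (13.9% of all features). In Mettl3 KO edgeR called 0 of 9 (2.54% of all features), an unadjusted p under 0.05 was reached by 2, Neurod1 and Stmn3 (25.7% of all features), and DESeq2 called 1, Neurod1 (4.94% of all features).

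To show where the m6A motif lies in the enriched genes, the letters GGACT were searched on the sense strand of the principal protein-coding transcript of each gene in GENCODE M21 (GRCm38). Of 21901 genes with such a transcript 86.9% held it, with a median of 1.01 copies per kilobase. Neurod1 had 3 copies (1.1 per kilobase), all in the coding part of its second exon, and Tubb3 had 3 (1.61 per kilobase), all coding, in exons 2, 3 and 4. Bdnf had 3 (0.703 per kilobase) in its last exon, of which 2 were coding and 1 was in the 3′UTR. Among transcripts within 20% of the same length, the share with at least 1 copy was 93.5% for Neurod1, 87.3% for Tubb3 and 98.2% for Bdnf.

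The windows of 29 bases around these copies are given 5′ to 3′ on the gene's strand, with GGACT in capitals. Those of Neurod1 are at chr2:79454872-79454900, chr2:79454444-79454472 and chr2:79454349-79454377 (minus strand), those of Tubb3 at chr8:123418137-123418165, chr8:123418959-123418987 and chr8:123420656-123420684 (plus strand), and those of Bdnf at chr2:109723512-109723540, chr2:109723657-109723685 and chr2:109725328-109725356 (plus strand). For contrast, 2 of the coding copies of Pax6, which was not enriched, are at chr2:105683871-105683899 and chr2:105685902-105685930 (plus strand).
Neurod1 site 1: gaatgcagaggaGGACTctctgagaaacg
Neurod1 site 2: agctcaaccctcGGACTttcttgcctgag
Neurod1 site 3: taccagtcccctGGACTgcccagcccgcc
Tubb3 site 1: caactatgtaggGGACTcagacctgcagc
Tubb3 site 2: ggccattctggtGGACTtggaacctggaa
Tubb3 site 3: cgcggagctggtGGACTcagtcctagatg
Bdnf site 1: tgcggacccatgGGACTctggagagcgtg
Bdnf site 2: ccataaggacgcGGACTtgtacacttccc
Bdnf site 3: gccattgaaataGGACTgaatggccctgc
Pax6 coding site 1: gcggccactgccGGACTccacccggcaga
Pax6 coding site 2: gttggtatcccgGGACTtcagtaccaggg
These are matches of letters, and counts per gene do not show at which of them the antibody bound.

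Tubb3 had 207.4 and 184.7 normalized counts in the WT26 inputs and 501.6 and 755.6 in the WT26 IPs, a log2 ratio of 1.68 (SE 0.37, adjusted p = 0.00817, edgeR). The ratio was 1.49 (SE 0.379, adjusted p = 0.0167) in Mettl14 KO cells, from inputs of 122.9 and 113.6 to IPs of 207.2 and 462.4, and 1.32 (SE 0.369, adjusted p = 0.021) in RBC, from inputs of 211.3 and 141.4 to IPs of 363.3 and 522. In Mettl3 KO cells the inputs had 240.7 and 284.2 and the IPs 296.8 and 439.2, a log2 ratio of 0.49 (SE 0.363, adjusted p = 0.417). Tubb3 IPs lay above the inputs without overlap in all 4 lines, as did those of Neurod1 and of Stmn3, which was not called. The share of all features with such a separation of IP and input was not counted. The WT26 call was lost without input replicate 2 or IP replicate 2 (highest adjusted p 0.0887). The Mettl14 KO and RBC calls were lost without either input or without IP replicate 2 (highest adjusted p 0.218 and 0.175).

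Neurod1 had 173.8 and 180.8 normalized counts in the WT26 IPs against 80.9 and 51.5 in the inputs (log2 ratio 1.40, SE 0.48, adjusted p = 0.0382, edgeR). In RBC the IPs had 117.9 and 124.7 and the inputs 45 and 29 (1.70, SE 0.501, adjusted p = 0.0252), and in Mettl3 KO cells the IPs had 52.1 and 116.6 and the inputs 27.2 and 32.1 (1.5, SE 0.515, adjusted p = 0.0954). The Mettl14 KO ratio of 2.16 (SE 0.701, adjusted p = 0.038) rested on 8 and 0 reads in the inputs against 24 and 21 in the IPs, and with each input and its IP as a pair its adjusted p was 0.0652. Without any 1 of the 4 WT26 libraries the WT26 call was lost (adjusted p 0.0583 to 0.211). The Mettl14 KO and RBC calls were lost without either input or without IP replicate 2 of that line (highest adjusted p 0.222 and 0.173). Neurod1 was above its input in all 8 IPs, and so were Tubb3 and Bdnf and the uncalled Gap43 and Stmn3. How many of all features lay above their input in all 8 IPs was not counted, so this is a description only.

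Bdnf had 41.4 and 88.2 normalized counts in the WT26 IPs and 25.9 and 13.6 in the inputs (log2 ratio 1.65, SE 0.485, adjusted p = 0.0213, edgeR), a call that was lost without either input or without IP replicate 2 (highest adjusted p 0.24). The ratios of 1.11 (SE 0.547) in the Mettl14 knockout, 0.89 (SE 0.555) in RBC and 0.48 (SE 0.528) in the Mettl3 knockout did not pass the test. The Mettl3 KO inputs held 15 and 10 reads of Bdnf and the IPs 24 and 25.

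The 6 other genes were not called in any line in the main edgeR fit. Pax6 had the most GGACT copies of the 9 genes, 7 (2.44 per kilobase, 3 of them coding), and log2 ratios between -0.07 and 0.42. Gap43 and Stmn3 had 0 copies, which occurs in other transcripts of their length too (82.2% and 72.3% hold at least 1). Gap43 had log2 ratios of 1.23, 2.81, 1.28 and 1.30 and Stmn3 of 1.39, 1.03, 1.89 and 1.55, each in the order WT26, Mettl14 knockout, RBC, Mettl3 knockout. The SEs of these ratios were 0.627 to 1.08, and the largest came from 0 and 2 reads of Gap43 in the Mettl14 KO inputs. With each input and its IP as a pair, Gap43 in Mettl14 KO (adjusted p = 0.0424, edgeR) and Stmn3 in RBC (adjusted p = 0.0287) passed the test. The related letters GGACA or GGACC occurred 2 times in Gap43 and 1 time in Stmn3, and in 95.7% of all coding transcripts.

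Dpysl3 was the only one of the 9 genes with a negative log2 ratio in all 4 lines, from -0.72 (SE 0.359, adjusted p = 0.139) in RBC to -0.24 (SE 0.356) in Mettl3 KO cells. Stmn2 had ratios of 0.30 to 0.49, and Isl1 had 0.73 to 2.49 with SEs of 0.758 to 1.35.

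A change of IP over input between knockout and control was found for 0 of 9 genes in Mettl14 KO against WT26 and for 0 of 9 in Mettl3 KO against RBC in edgeR, where 0% and 0% of all features had an adjusted p no higher than 0.05. At an unadjusted p under 0.05 there were 0 and 0 of the 9 genes, beside 0.557% and 3.48% of all features, and DESeq2 called 0 and 0, beside 0.00442% and 0%. On the log2 scale, Tubb3 had a change of -0.19 (SE 0.522) against WT26 and of -0.84 (SE 0.514) against RBC, Bdnf of -0.54 (SE 0.738) and -0.41 (SE 0.766), and Neurod1 of 0.76 (SE 0.848) and -0.20 (SE 0.715). The SEs of the 9 genes ran from 0.487 (Pax6) to 1.62 (Isl1), so that these values do not show whether the ratio stayed the same. A change of IP over input shared by most features would also be removed by the scaling.

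**Figure D3:**
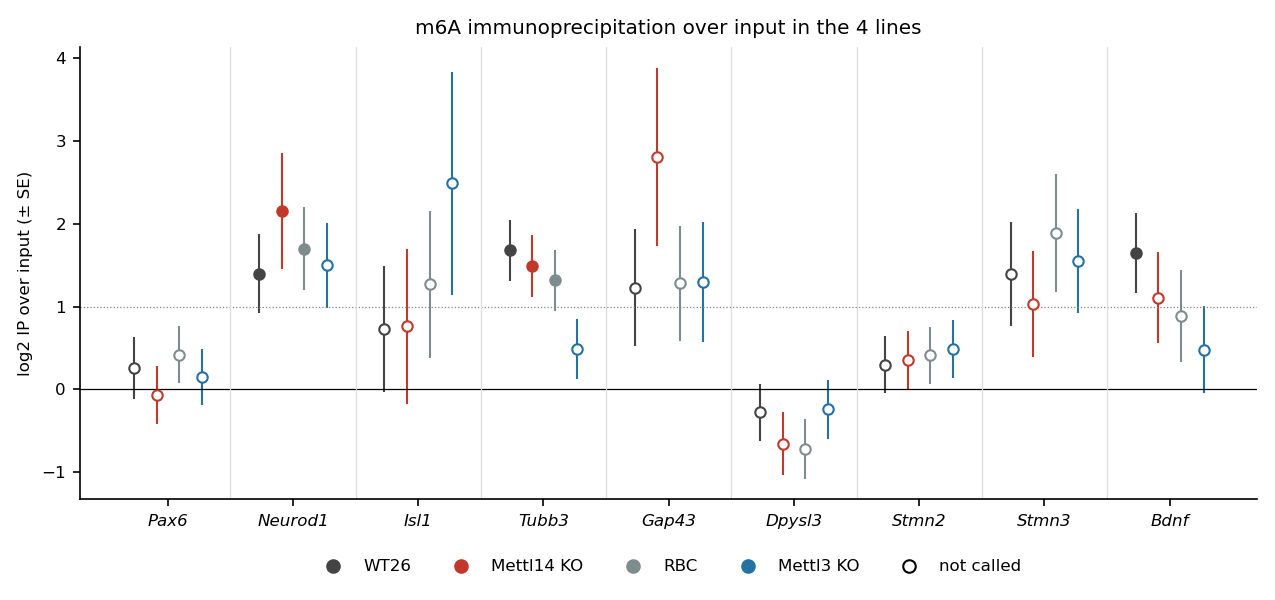
Log2 ratio of m6A IP over input (y axis, points, with SE as bars) of the 9 neuronal genes in the 4 lines. Filled points passed the test and a log2 ratio of 1 (dotted line), and open points did not. Tubb3 and Neurod1 are filled in WT26, Mettl14 KO and RBC, Bdnf in WT26, and no gene in Mettl3 KO cells.

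Other neuronal genes were examined in 4 lists of 123 genes in all, none of which holds one of the 9 genes. In RNA-seq 79 of them were tested, and 15 were called in Mettl14 KO cells (3 higher, 12 lower, 19% of those tested beside 14.5% of all genes) and 18 in Mettl3 KO cells (9 higher, 9 lower, 22.8% beside 13.6%). Between the control lines RBC and WT26, 14 of the 79 were called as well (9 higher, 5 lower, 17.7% beside 8.98%). The median log2 fold change over the tested list genes was -0.14 and 0.04 in the knockouts, beside 0 over all genes, and 0.30 between the controls, beside -0.01. Except for Gfra2 and the relatives of the 9 genes, the list genes named here were picked after their values were seen.

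The shares of each list that follow stand beside the same 14.5%, 13.6% and 8.98% of all genes. Of 19 tested neural transcription factors, 4 (21.1%) were called in Mettl14 KO cells (1 higher, 3 lower), among which Gbx2 (-1.76) and Pou3f1 (-3.06) fell and Myt1l (2.75) rose, as log2 fold changes. In Mettl3 KO cells 2 (10.5%) were called, Zic5 (1.38) and Zic2 (1.12), both higher, and 2 (10.5%) between the controls. Of 28 genes of the neuronal cytoskeleton and axon growth, 4 (14.3%) were lower in Mettl14 KO cells (Dclk1, Stmn1, Crmp1 and Kif5a), 3 (10.7%) were higher in Mettl3 KO cells (Dpysl4, Crmp1 and Ina), and 5 (17.9%) were called between the controls. Of 20 genes of the synapse and neuronal RNA binding, 1 (5%) was called in Mettl14 KO cells (Celf4, -1.46), 7 (35%) in Mettl3 KO cells, 2 higher and 5 lower, and 4 (20%) between the controls.

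Of 12 tested neurotrophic factors and receptors, 6 (50%) were called in each knockout, 2 higher and 4 lower in both, and 3 (25%) between the controls. Gfra2, a GDNF family receptor, was the single list gene called the same way in RNA-seq and in the inputs. It had 103.1 and 122.4 normalized counts in WT26 and 1 and 5.8 in Mettl14 KO cells in RNA-seq (log2 fold change -4.97, SE 0.352, adjusted p = 2.22e-09, edgeR). In the inputs it had 102.1 and 65.1 in WT26 and 3.6 and 12.6 in Mettl14 KO cells (-3.61, SE 0.66, adjusted p = 0.0347), and without any 1 of those libraries the adjusted p was 0.0913 to 0.515. Gfra2 was also lower in Mettl3 KO cells (26.1 and 24.2) than in RBC (64.4 and 77.9) in RNA-seq, with a log2 fold change of -1.5 (SE 0.253, adjusted p = 7.35e-05). Ntrk2, the receptor of Bdnf, had a log2 fold change of -1.02 (SE 0.284, adjusted p = 0.00573) in Mettl3 KO cells.

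In the inputs 1 of the 88 tested list genes was called in Mettl14 KO cells (Gfra2) and 0 in Mettl3 KO cells by edgeR. The shares over all features were 0.398% and 0.752%. At an unadjusted p under 0.05 there were 14 and 23 list genes, beside 10.6% and 11.7% of all features, and DESeq2 called 4 and 2, beside 1.7% and 1.89%. Once a block on the replicate number was added, edgeR called 4 and 1.

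Close relatives of the 9 genes moved in their own ways. In Mettl14 KO cells the stathmin Stmn1 fell (log2 fold change -1.43, SE 0.0781, adjusted p = 7.95e-11, edgeR), and among the relatives of Dpysl3, Crmp1 fell (-1.89, SE 0.139, adjusted p = 3.5e-09) while Dpysl2 (-0.04), Dpysl4 (0.83) and Dpysl5 (0.20) were not called. In Mettl3 KO cells Crmp1 (1.0, SE 0.104, adjusted p = 2.59e-07) and Dpysl4 (1.39, SE 0.229, adjusted p = 5.95e-05) rose. The other beta-tubulins Tubb2a, Tubb2b, Tubb4b, Tubb5 and Tubb6 passed the limit on size in neither knockout: their log2 fold changes ran from -0.60 to -0.25 in Mettl14 KO cells and from -0.81 to 1.0 (Tubb6, just under the limit) in the Mettl3 knockout.

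Markers of other cell types moved with the lines. All 7 endoderm markers listed were detected in RNA-seq, where 5 of them were tested. In Mettl14 KO cells 5 of 5 rose (median log2 fold change 1.77). In Mettl3 KO cells 1 of 5 was called, lower, and between the controls 2 of 5, higher in RBC. Their summed normalized counts were 99.8 to 106.7 in WT26 against 309.8 to 323.5 in Mettl14 KO cells, while RBC had 164.4 to 175.5 and its knockout 120.9 to 147.1. In the inputs 0 of the 7 were called in Mettl14 KO cells (median log2 fold change 0.46), beside 0.398% of all features. The input sums overlapped, with 81.7 to 216.5 in WT26 and 208.4 to 221.5 in Mettl14 KO, where Sox17 and Foxa2 had 0 reads. The 15 ES cell markers summed to 46371.9 to 47516.7 in WT26 against 32457.7 to 32599.4 in Mettl14 KO cells, while RBC had 42153.1 to 42448.9 and its knockout 25958.4 to 26677.8. Of these 15, the Mettl14 knockout had 1 call (6.67%) and the Mettl3 knockout 4 (26.7%), all lower, and RBC against WT26 had 1. In the inputs 0 of the 15 were called in Mettl14 KO cells and 1 (6.67%, lower) in Mettl3 KO cells, beside 0.398% and 0.752% of all features. The 6 fibroblast markers summed to 81.4 to 84.8 in WT26 against 27.3 to 31 in Mettl14 KO cells, while RBC had 101.2 to 110.4 and its knockout 44.3 to 62.4, with Dcn at 0 in every line. Most of the sum was Thy1, a surface protein that neurons also carry, with 75.1 and 79.4 in WT26 and 18 and 19.5 in Mettl14 KO cells, and the other 5 genes ran from 0 to 24.2 (Col1a2) over the 8 libraries. The median log2 fold change of the tested markers was 0.01 in Mettl14 KO cells and 0.06 in the Mettl3 knockout. Of the 3 fibroblast markers tested, 1 was called in Mettl14 KO cells (lower) and 2 in the Mettl3 knockout (1 higher, 1 lower). The 7 glia markers summed to 110.6 to 132.9 in WT26 against 163.2 to 195.8 in Mettl14 KO cells, while RBC had 124.2 to 136 and its knockout 151.3 to 155.1. Aqp4 was at 0 in every line. Of the 3 tested glia markers 1 was called in Mettl14 KO cells (higher) and 1 between the controls (higher in RBC). The 6 trophectoderm markers summed to 305.7 to 322.1 in WT26 against 371.2 to 375.6 in Mettl14 KO cells, while RBC had 326.5 to 335.2 and its knockout 376.5 to 380.7. The 6 mesoderm markers summed to 95.9 to 117 in WT26 against 78.9 to 82.1 in Mettl14 KO cells, while RBC had 81.8 to 88.5 and its knockout 79.6 to 89.6. Of the 4 tested mesoderm markers 1 was called in each knockout, and the 4 tested trophectoderm markers had median log2 fold changes of 0.08 and -0.11. The 27 genes of the synapse list summed to 3047 to 3149.7 in WT26 against 2416.7 to 2702.4 in Mettl14 KO cells, while RBC had 3540.1 to 3567.1 and its knockout 2512.1 to 2559.2. Much of this sum was Ncam1, with 1258.8 and 1246.5 in WT26 and 654 and 767.7 in Mettl14 KO cells, and Elavl2, with 680.9 and 596.9 in WT26. The median log2 fold change of the 20 tested genes of the list was 0.10 and 0.04 in the knockouts. In RNA-seq every line had genes of this list with 0 reads in both replicates. They were Rbfox3 and Scg2 in WT26, Scg2 and Slc17a6 in Mettl14 KO cells and RBC, and Slc17a6 and Slc32a1 in Mettl3 KO cells. The part of these cell types in the results on the 9 genes was not tested.

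**Figure D4:**
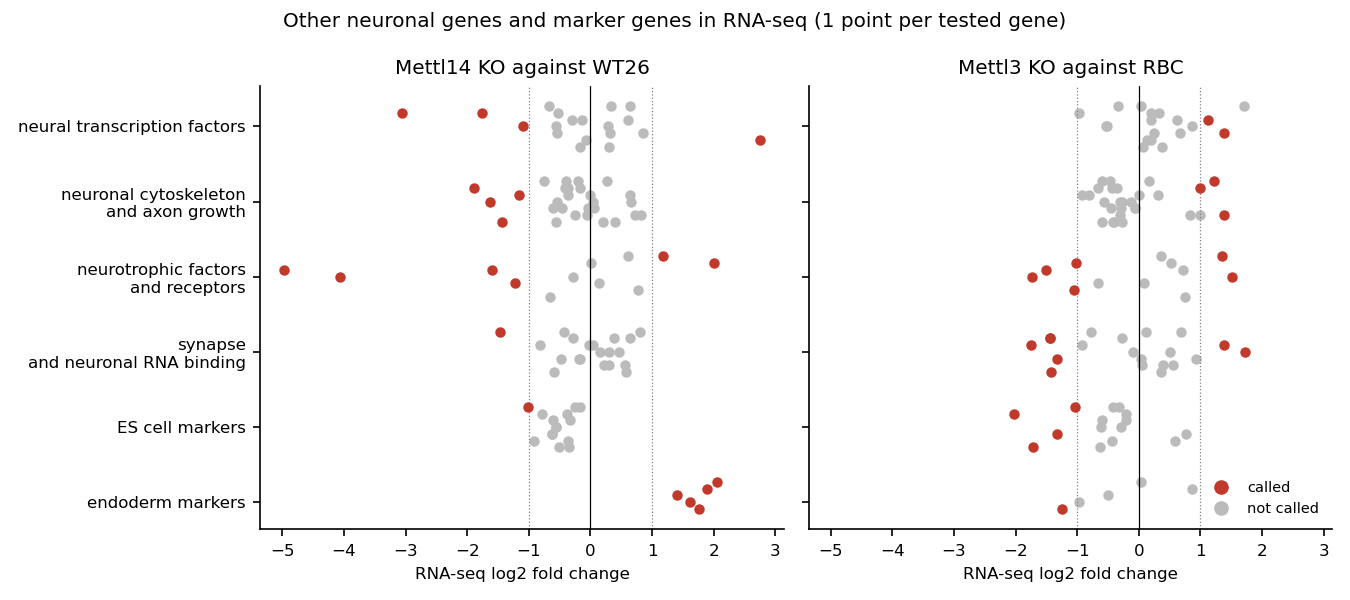
RNA-seq log2 fold change (x axis) of each tested gene (1 point) of the 4 neuronal lists, the ES cell markers and the endoderm markers (y axis), in Mettl14 KO against WT26 and Mettl3 KO against RBC. Red points were called, grey points were not, and dotted lines mark a log2 fold change of 1 in either direction. All 5 endoderm markers are red on the right in Mettl14 KO cells, and neuronal genes are red on both sides in both knockouts.

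Among 10180 protein-coding genes other than itself (10181 where the gene itself was below the limit) that averaged 50 or more normalized counts in both tables, the one most like each of the 9 genes over the 8 RNA-seq and 8 input libraries was found by Pearson's correlation of centred log2 values. It was Tdgf1 for Stmn2 (r = 0.989), Pkd2 for Pax6 (0.985), Phf6 for Dpysl3 (0.966), Hmcn2 for Neurod1 (0.963), Ruvbl1 for Gap43 (0.956), Toe1 for Tubb3 (0.951), Renbp for Stmn3 (0.936), Marcks for Isl1 (0.917) and Zscan22 for Bdnf (0.88). The 16 libraries come from 4 lines, so these values mostly compare 4 levels and are given as a description. Tdgf1, the Nodal co-receptor Cripto and one of the ES cell markers, had 11949.5 and 12265.2 normalized counts in WT26 against 7506.5 and 8088.7 in Mettl14 KO cells, while RBC had 10308.1 and 10744.6 and its knockout 4058.4 and 4391.6, the order in which Stmn2 also fell.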

How the data were processed

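RNA-seq and MeRIP-seq (m6A IP and input) were analysed in the 4 ES cell lines, with 2 replicates per group. The authors deposited raw counts per gene (RNA-seq) and per gene and repeat subfamily (MeRIP-seq). Per the submitters' processing notes, reads were trimmed with cutadapt 1.8.1 and aligned to GRCm38 with STAR 2.6.0c. The study's methods quantified MeRIP-seq reads with TEtranscripts, which distributes reads that match several places, and the RNA-seq counting tool is not given in the sources used here. Each column could be matched to one sample by name.

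Counts were fitted with edgeR 4.0.16 in R 4.3.3 (quasi-likelihood test) using size factors of DESeq2 1.42.0, filterByExpr, all libraries of a table in one fit, and Benjamini-Hochberg adjustment over the 17021 genes or 22621 features tested. SEs of log2 fold changes were derived from the F statistic. Calls required an adjusted p no higher than 0.05 together with a log2 fold change beyond 1 in size (above 1 for an enrichment, with no limit on size for a change of IP over input). Scripts were tested on simulated data. Positions, exon lengths and motifs came from GENCODE M21 with Python 3.11.15, and 47224 of 47937 gene identifiers had a symbol. Each group had 2 replicates, and p-values measure only the spread between replicates, taken over all groups of a table in the fit. In the main fit the spread used for the input contrasts therefore includes the IP libraries. On the chi-square scale used above for the RNA-seq lines, replicates gave 24.1 to 71.7 in the inputs and 107 to 216 in the IPs. Counts below about 10 per library limit Isl1, Gap43 and, in Mettl14 KO inputs, Neurod1. Such counts also occur for Stmn3 in WT26, RBC and Mettl3 KO inputs. For Bdnf they occur in WT26, Mettl14 KO and RBC inputs and in RBC RNA-seq.

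The study combined 3 reactions per MeRIP replicate, and input and IP of a replicate come from the same RNA. Over features averaging 50 or more normalized counts, the replicate deviations of input and IP of a line correlated at 0.195 to 0.28, so they were treated as pairs in an alternative fit, whose values are given where they change a call. Same-numbered inputs of different lines also deviated together (0.251 to 0.452), and the values with the replicate number as a block are likewise given where a call changes.

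The 9 genes, the lists and the comparisons were chosen with earlier results of these data known. Genes were named by rule if they were among the 9, if a list gene was called in the same direction in RNA-seq and inputs, if they were family relatives of the 9, or if they were the most alike in level. The other list and marker genes named were picked after their values were seen. The alternatives tried were the DESeq2 test, TMM or library size alone for scaling, no filter or 10 counts in every library as the filter, a block on the replicate number or on the pair of input and IP, input libraries only, and leaving out each replicate. The authors' peak calls were not analysed here.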

Additional observations from a re-analysis of the deposited data

Results flagged for a closer look

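Tubb3 and Stmn3 both fell in Mettl14 KO cells and rose in Mettl3 KO cells in RNA-seq. Every Mettl14 KO replicate was below every WT26 replicate and every Mettl3 KO replicate above every RBC replicate. The Tubb3 change in Mettl3 KO cells (0.45) and the Stmn3 change in Mettl14 KO cells (-0.64) did not pass the limit on size. The change in Mettl3 KO minus the change in Mettl14 KO was 1.54 on the log2 scale for Tubb3 and 1.70 for Stmn3. These RNA-seq contrasts chose the genes, so the difference was not tested there. In the inputs the same difference was 1.30 (SE 0.529, adjusted p = 0.597, edgeR) for Tubb3 and 0.87 (SE 1.01, adjusted p = 1) for Stmn3. The fall of Stmn3 in Mettl14 KO cells was not seen in the inputs, where the replicates overlapped with WT26 (log2 fold change 0.33, SE 0.682).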

How the results depend on the processing

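The counts of the 9 genes past the threshold changed as follows, and except where the construction of an alternative shows it, the cause was not tested. For Mettl14 KO against WT26 inputs (2 genes), requiring at least 10 counts in every library left 4 of the 9 genes and gave 1, and leaving out a replicate gave 0 to 0. For Mettl3 KO against RBC inputs (0), no filter, the block on the replicate number and the input libraries alone each gave 1 (Stmn2). For RBC against WT26 inputs (0), DESeq2, no filter and the block each gave 1 (Dpysl3) and the input libraries alone 2 (Dpysl3 and Pax6). In Mettl14 KO against WT26 inputs Pax6 passed in the fit of the input libraries alone. For the difference between the knockouts (0), DESeq2, no filter and the input libraries alone each gave 2 (Neurod1 and Dpysl3). For IP over input, at least 10 counts in every library gave 1 in WT26, Mettl14 KO and RBC, and leaving out a replicate gave 0 to 2 of 3 in WT26, 0 to 3 in Mettl14 KO, 0 to 3 in RBC and 0 to 0 in Mettl3 KO. In Mettl3 KO (0), DESeq2 and library size only gave 1 (Neurod1) and no filter 2 (Neurod1 and Stmn3). With library size only, Stmn3 also passed in WT26 (adjusted p = 0.039, edgeR) and in RBC (0.0226), and Gap43 in Mettl14 KO (0.0346). Without a filter these passed too, with adjusted p of 0.0296, 0.00733 and 0.0234 (edgeR). Leaving out a replicate gave 0 to 0 for the other comparisons of the 9 genes in MeRIP-seq. For the neuronal lists in the inputs, Mettl14 KO against WT26 (1) gave 4 with DESeq2, 2 with library size only, 7 without a filter, 0 with at least 10 counts, 4 with the replicate block, 7 with input libraries only and 0 to 0 without a replicate, and Mettl3 KO against RBC (0) gave 2, 3 without a filter, 1 with the block and 6 with input libraries only. Leaving out a replicate gave 14 to 17 list genes in RNA-seq for Mettl14 KO, 14 to 21 for Mettl3 KO, and 10 to 12 of the 18 RNA-seq differences of the 9 genes beyond 1 on the log2 scale (11 with all libraries). No called value changed its direction. Deviations of same-numbered libraries of different lines correlated at -0.172 to 0.453 in RNA-seq, where the lines share only a number, and at 0.251 to 0.452 in the inputs, where replicate 1 was also the deeper library in every line and the labels name no shared batch. Besides the values above, the block on the replicate number gave 3 genes for IP over input in Mettl14 KO (with Gap43, adjusted p = 0.04, edgeR) and 3 in RBC (with Stmn3, adjusted p = 0.0442), and 17 list genes in RNA-seq for Mettl3 KO, and it left the other counts as they were. The change of IP over input stayed at 0 genes in every alternative run.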
